A study of Mustela putorius furo and Mus musculus with 4 samples.

Results

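The 8 genes followed here encode myelin proteins, and their levels were compared in cultured astrocytes of ferret and mouse. They are Mbp, Mag, Mog, Cnp, Mal, Pllp, Pmp22 and Gpm6b, chosen by name, and they are 8 of the 13373 gene symbols found in both species. Each symbol had a single value per library, so no choice between several values was needed. The genes were picked with the ferret and mouse values already known. Their differences between the species are therefore described here and not tested, and p-values are given for other genes only.

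The ferret group was primary astrocytes from the cerebral cortex of ferrets (Mustela putorius furo) at postnatal day 1, with 2 libraries. The mouse group was primary astrocytes from the cerebral cortex of wild-type ICR mice at postnatal days 1 to 3, also with 2 libraries. Both were grown as mixed glia in serum for 14 days, shaken so that loosely attached cells could be discarded, and replated in serum. The medium was then changed to a serum-free one with supplements and heparin-binding EGF-like growth factor, in which the cells stayed until RNA harvest. The mouse flasks pooled the cortices of several pups, whereas the cells of a single ferret pup filled several flasks, and the labels do not say whether duplicate libraries came from separate cultures. If they did not, p-values measure a spread that is technical. Values are FPKM, fragment counts scaled to exon length and to the fragments mapped in the library, which the authors computed on the gene models of each species.

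Myelin is the stack of membrane that oligodendrocytes wrap around axons in the brain and spinal cord and that Schwann cells wrap around axons in peripheral nerve. The stack is held together by a few abundant proteins. Myelin basic protein (Mbp) closes the cytoplasmic faces in both systems. Pmp22 belongs to compact peripheral myelin, Mog to the outer surface of central myelin, and Mag to the inner membrane next to the axon in both systems. Cnp lies in the cytoplasm-filled parts of myelin, Mal and Pllp are small lipid-raft proteins of both systems, and Gpm6b is a membrane glycoprotein made by neurons and by several kinds of glia. Several of these genes are also active outside myelin, Pmp22 in fibroblasts among others.

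The compact-myelin and raft genes Mbp, Pllp and Mal were higher in ferret astrocytes, by 13.0-fold, 14.4-fold and 3.67-fold in mean FPKM. Gpm6b was 5.25-fold higher in mouse astrocytes. Pmp22, the peripheral gene of the set, exceeded between 97.5% and 98.1% of the shared genes in each library and was 1.45-fold higher in mouse astrocytes. Cnp was 1.85-fold higher in ferret astrocytes, and Mag and Mog were near or under 1 FPKM in both species. The duplicates did not overlap between species for any of the 8 genes. The ferret pair lay above the mouse pair for 6 genes and below it for 2, against 35.1% and 59.0% of all 10204 genes tested. A gene entered the test with a mean of at least 1 FPKM in at least one species, and 7 of the 8 passed, all but Mog. By the rule used for all genes (limma, a Benjamini-Hochberg adjusted p below 0.05 and a log2 difference beyond 1 in either direction), 3 of the 7 were on the higher side in ferret and 1 on the lower side, beside 13.1% and 30.1% of all genes tested, and 43.2% in either direction. Nothing is read from these counts, since the genes were chosen on the same contrast.

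**Figure D1:**
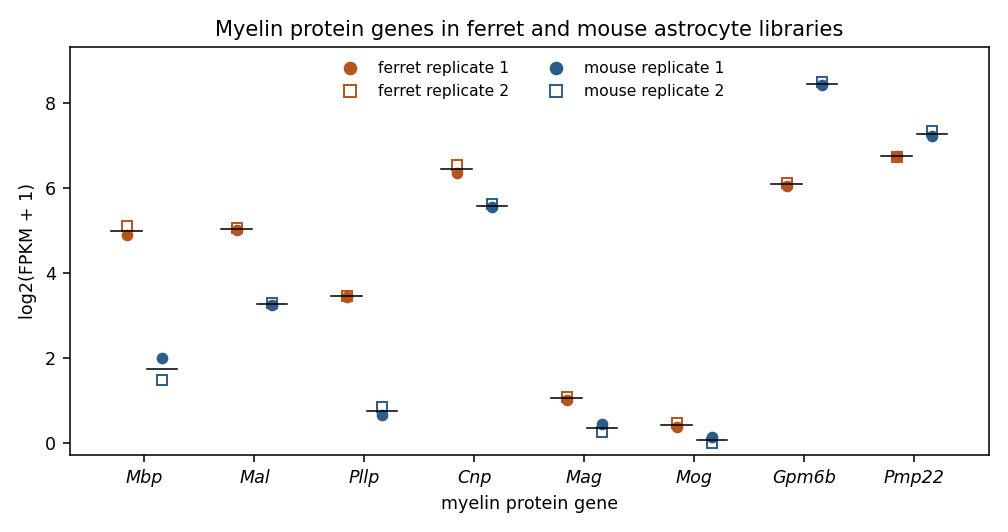
Level of each myelin protein gene as log2(FPKM + 1) in the 2 ferret and 2 mouse libraries; points are libraries and short lines the species means. Ferret points lie above mouse points for Mbp, Mal, Pllp, Cnp, Mag and Mog, and below them for Gpm6b and Pmp22.

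The shared symbols summed to between 227391 and 236543 FPKM in the ferret pair and between 300465 and 308121 in the mouse pair. Over all tested genes the difference, ferret minus mouse on the log2(FPKM + 1) scale, had a median of -0.35, and it was -0.01 after the libraries were rescaled to the mean of their 4 sums and 0.05 after quantile normalization. Genes called higher and lower in ferret astrocytes numbered 1336 and 3069 with FPKM as deposited, 1954 and 2215 after rescaling, and 2080 and 2082 after quantile normalization. Among 10 astrocyte markers, Gfap stood at 1502 ± 29.1 FPKM in the ferret and 1487 ± 82.7 in the mouse (SD, n = 2 each). Slc1a2, a glutamate transporter, stood at 0.155 ± 0.032 and 49.4 ± 3.33. Aldoc, an enzyme enriched in astrocytes, stood at 1660 ± 57.2 and 965 ± 69.7 FPKM, so the 2 leading astrocyte markers were abundant in both species while Slc1a2 was near 0 in the ferret. Of the 10 markers, 6 were lower and 1 was higher in ferret astrocytes by limma with FPKM as deposited, beside 30.1% and 13.1% of all genes tested. After rescaling or quantile normalization, Slc1a3 and Gja1 were no longer called lower, and Aldoc was called higher. Species, gene models and culture cannot be told apart in this design, and with 2 libraries against 2 an exact two-sided permutation test of a single gene cannot go below 0.333.

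Pmp22 and Gpm6b have close relatives that could share reads. In the mouse, coding sequences were taken from the GENCODE M21 transcript with the longest coding part, on GRCm38. Pmp22 was 60.1% identical to Emp2 and 60.7% to Emp3, which are other multi-pass membrane proteins of the family, and its longest identical run with Emp2 was 22 bases. Gpm6b was 67.7% identical to Gpm6a, with a longest run of 16 bases. The stretches around these longest runs are shown because they are where the transcripts of relatives are most alike. Each is 60 coding bases from a single exon, 5′ to 3′, with the identical run in capitals.
Pmp22, chr11:63158321-63158380, plus strand, exon 5: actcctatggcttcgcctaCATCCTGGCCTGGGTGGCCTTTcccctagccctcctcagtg
Emp2, chr16:10284463-10284522, minus strand, exon 5: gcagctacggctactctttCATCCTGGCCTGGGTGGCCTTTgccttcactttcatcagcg
Gpm6b, chrX:166372703-166372762, plus strand, exon 3: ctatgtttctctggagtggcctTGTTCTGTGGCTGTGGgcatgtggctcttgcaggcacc
Gpm6a, chr8:55037393-55037452, plus strand, exon 2: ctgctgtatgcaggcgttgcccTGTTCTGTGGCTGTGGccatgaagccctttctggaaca
Across all mouse transcripts, none of the distinct 50-base words of Pmp22, Gpm6b, Mal, Pllp, Cnp or Mog occurred on either strand in a gene that does not overlap it. For Mbp the share was 0.345% (30 of 8700 words) and for Mag 0.281% (12 of 4269).

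Mbp, whose basic protein holds the inner faces of the membrane together, stood at 28.5 and 33.1 FPKM in the ferret pair and at 2.95 and 1.78 in the mouse pair. The ferret duplicates were close to each other, while the mouse duplicates differed more in proportion. The means were 30.8 ± 3.27 in ferret and 2.36 ± 0.827 in mouse astrocytes (SD, n = 2 each), a log2 difference of 3.26 (standard error 0.14), which lay 3.61 above the median of all tested genes. In rank, Mbp exceeded 87.3% and 88.9% of the shared genes in the ferret pair and 37.2% and 32.2% in the mouse pair. The mouse gene has 14 coding transcripts in the annotation, and a value per gene does not say which of them were present.

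Pllp encodes plasmolipin, a multi-pass raft protein of myelin. It stood at 9.70 and 9.99 FPKM in the ferret pair and at 0.577 and 0.791 in the mouse pair, a log2 difference of 2.69 (standard error 0.086). The mouse values were under 1 FPKM, where this scale understates a difference, and with a pseudocount of 0.1 in place of 1 it was 3.68. Mouse Pllp lies at chr8:94674894-94696278 on the minus strand, and its exons share 1128 bp with an antisense transcript, Gm45767, which was at 0.054 and 0.102 FPKM.

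Mal, a raft protein that sorts myelin lipids and proteins, stood at 31.0 and 32.2 FPKM in the ferret pair and at 8.42 and 8.81 in the mouse pair. Both species were high enough for the pseudocount to matter little, and the log2 difference was 1.76 (standard error 0.064), or 2.11 above the median of all genes. Mal and Pllp belong to 1 protein family, and their longest identical coding run was 9 bases. The ratio of Mal to Pllp, both per length, was 3.20 and 3.23 in the ferret pair and 14.6 and 11.1 in the mouse pair. These genes were thus in a different proportion in the 2 species, with Pllp the rarer of them in all 4 libraries.

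Cnp encodes the cyclic nucleotide phosphodiesterase of non-compact myelin. It stood at 79.9 and 92.0 FPKM in the ferret pair and at 45.6 and 47.7 in the mouse pair. The log2 difference was 0.87 (standard error 0.074), under the limit of 1. It lay 1.22 above the median of all genes, and it became 1.25 after rescaling and 1.23 after quantile normalization, past the limit in both. Of the 7 genes, Cnp was the one whose side of the rule depended on how the libraries were scaled. Mouse Cnp, at chr11:100574904-100591729 on the plus strand, shares 154 bp of exon with Dnajc7 on the other strand, and Dnajc7 was at 73.7 and 73.4 FPKM in the mouse pair. The libraries were stranded, but the strand setting of the quantification is not given in the sources used here, so reads of the shared stretch cannot be assigned.

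Mag, the sialic acid-binding adhesion protein that faces the axon, stood at 1.00 and 1.11 FPKM in the ferret pair and at 0.364 and 0.184 in the mouse pair. The log2 difference of 0.69 (standard error 0.090) was under the limit of 1 and became 1.67 with a pseudocount of 0.1. Mog, an immunoglobulin-like protein found on central myelin only, stood at 0.279 and 0.381 FPKM in the ferret pair and at 0.095 in the first mouse library, and was listed at 0 in the second. The ferret values exceeded the mouse values for both genes. The FPKM do not give the number of fragments behind such low values, and read counts were not used here.

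Pmp22, a multi-pass protein of compact peripheral myelin, stood at 106.5 and 105.0 FPKM in the ferret pair and at 147 and 161 in the mouse pair. The log2 difference was -0.53 (standard error 0.063), or -0.19 relative to the median of all genes. After rescaling it was -0.15 and after quantile normalization -0.17, below 0 under both scalings. Mouse Pmp22 lies at chr11:63128982-63159547 on the plus strand, with 4 coding transcripts.

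Gpm6b, a multi-pass membrane glycoprotein, stood at 65.2 and 67.6 FPKM in the ferret pair and at 340 and 357 in the mouse pair. It was the most abundant of the 8 genes in both mouse libraries, where it exceeded 99.3% of the shared genes. The log2 difference was -2.37 (standard error 0.059), or -2.03 relative to the median of all genes, and it was -1.99 after rescaling. Mouse Gpm6b lies at chrX:166238911-166388988 on the plus strand and has 9 coding transcripts over 5600 bp of exon. The length of the ferret gene model was not used here.

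**Figure D2:**
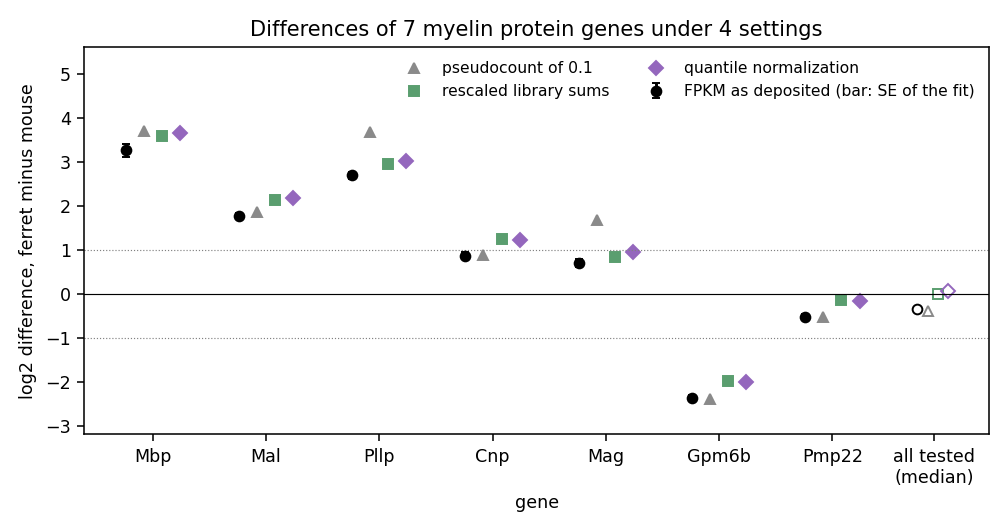
Log2 difference, ferret minus mouse, of the 7 myelin protein genes that passed the filter, with FPKM as deposited (bars, standard error of the fit), a pseudocount of 0.1, rescaled library sums and quantile normalization; open points at the right show the median of all tested genes and dotted lines the limits of 1 and -1. Mbp, Mal and Pllp stay above 1 and Gpm6b below -1 at each setting, whereas Cnp and Mag move across 1.

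The order of the genes differed between the species on this per-length scale. In ferret astrocytes Pmp22 was highest, followed by Cnp, Gpm6b, Mal, Mbp, Pllp, Mag and Mog, and the ranges of Mal and Mbp overlapped so that these neighbours could not be ordered. In mouse astrocytes Gpm6b was highest, followed by Pmp22, Cnp, Mal, Mbp, Pllp, Mag and Mog, with no overlap between neighbours. Apart from the place of Gpm6b, the order of the means was the same in both species. The 8 genes summed to 322 and 341 FPKM in the ferret pair, of which Gpm6b made up 20.2% and 19.8%, and to 545 and 577 FPKM in the mouse pair, of which it made up 62.4% and 61.9%.

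Within each library the peripheral gene Pmp22 could be set against Mbp, a gene of both systems. The ratio of Pmp22 to Mbp, both in FPKM, was 3.74 and 3.17 in the ferret pair and 49.8 and 90.3 in the mouse pair. The ratio of Pmp22 to Cnp was 1.33 and 1.14 in the ferret and 3.22 and 3.37 in the mouse. A ratio within a library does not depend on how libraries are scaled, and it shows only that the genes differed unequally. Pmp22 was the only peripheral gene of the 8, so peripheral and central myelin were compared over wider lists.

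The 3 lists of other myelin genes held 35 genes, of which 28 had a symbol in both species and 17 passed the filter. By limma with Benjamini-Hochberg adjustment and the limit of 1, 8 of the 17 were higher and 4 lower in the ferret. Of all genes tested, 13.1% were called higher and 30.1% lower. The median of the 17 was 0.80 in log2 beside -0.35 for all genes. In the list of peripheral myelin genes 5 of 9 tested were higher and 2 lower, with a median of 1.03. That list also held Mpzl1, called higher, and Nfasc, called lower, which are not confined to peripheral myelin. Among central myelin genes 2 of 3 tested were higher and none lower, with a median of 1.62, and among genes of both systems 1 of 5 was higher and 2 were lower, with a median of -0.32. With the genes under the filter included, the median was 0.74 for the 11 shared peripheral genes and 0.04 for the 9 shared central genes. It was -0.004 for the 8 shared genes of both systems and -0.11 for all shared symbols. The order of the peripheral and central medians thus depended on the filter. The difference between the lists was not tested. Genes such as Pmp2 and Sox10 were put on them with their values already known, so these counts are not independent evidence of a direction.

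**Figure D3:**
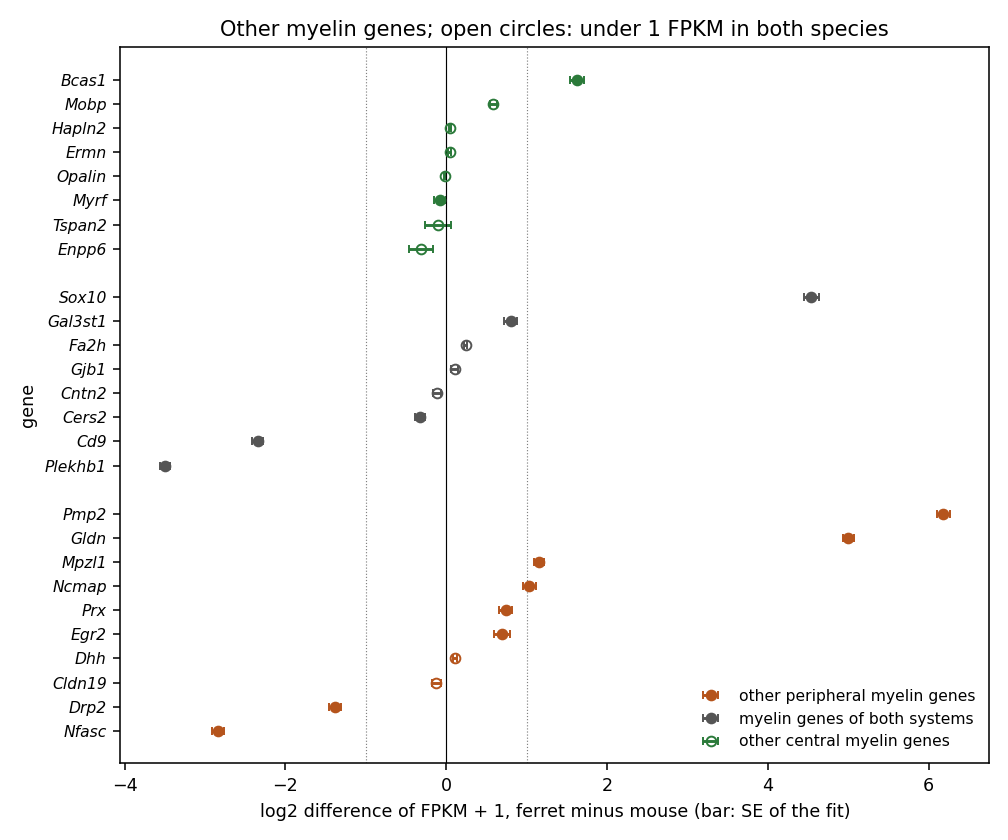
Log2 difference of FPKM + 1, ferret minus mouse, of other myelin genes in 3 lists (bars, standard error of the fit; open circles, genes under 1 FPKM in both species; dotted lines, limits of 1 and -1). Of the genes plotted, Pmp2 lies farthest to the right at 6.19 and Plekhb1 farthest to the left at -3.50.

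Of the peripheral genes, Pmp2, a lipid-binding protein found in peripheral myelin, stood at 82.0 and 74.4 FPKM in the ferret pair against 0.116 and 0.058 in the mouse pair (log2 difference 6.19, limma adjusted p = 8.15e-12). Gldn, which encodes gliomedin, a Schwann cell protein of the node of Ranvier, stood at 120 and 127 FPKM in the ferret pair and at 2.99 and 2.77 in the mouse pair, 42.9-fold higher in the mean (limma adjusted p = 8.89e-12). Both genes were abundant in the ferret pair and low in the mouse pair. The study itself listed Pmp2 as a gene of human and ferret astrocytes that was not found in mouse astrocytes. It also reported more PMP2 protein in ferret than in mouse cultures, which were kept in serum.

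Mpzl1, a widely expressed immunoglobulin-like membrane protein, was higher in ferret astrocytes by 1.15 (limma adjusted p = 7.06e-08). Ncmap, a protein of non-compact peripheral myelin, was higher by 1.03 (limma adjusted p = 9.76e-07), at 1.14 and 1.34 FPKM in the ferret pair, and by 0.97 without ferret replicate 2, which put it under the limit. Nfasc, a cell adhesion protein of paranodes and nodes, was lower in ferret astrocytes, at 4.85 and 4.19 FPKM against 37.5 and 39.1 in the mouse pair (log2 difference -2.83, limma adjusted p = 4.57e-10). Drp2, a dystrophin-related protein that binds periaxin, had a difference of -1.38 (limma adjusted p = 6.18e-08), which was -0.97 after quantile normalization. Prx (periaxin) and Egr2, a transcription factor that drives peripheral myelination, had differences of 0.74 and 0.70, under the limit with FPKM as deposited and past it with a pseudocount of 0.1 or quantile normalization.

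Of the central genes, Bcas1, a marker of oligodendrocytes that begin to myelinate, was at 3.43 and 3.97 FPKM in the ferret pair against 0.458 and 0.588, a difference of 1.62 (limma adjusted p = 6.04e-08). Myrf, a transcription factor required for central myelination, was near 1 FPKM in all 4 libraries, with a difference of -0.08 (limma adjusted p = 0.374). The other 6 shared genes of the list were under the filter. Opalin, a protein of mature oligodendrocytes, was listed at 0 in both ferret libraries and at 0.017 and 0 FPKM in the mouse pair. Mobp stood at 0.707 and 0.645 FPKM in the ferret pair and at 0.152 and 0.084 in the mouse pair.

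Of the genes used in both systems, Sox10, a transcription factor of oligodendrocytes and Schwann cells, was higher in ferret astrocytes by 4.54 (limma adjusted p = 8.38e-11). Cd9, a tetraspanin, was lower, at 38.9 and 43.2 FPKM against 204 and 221 (log2 difference -2.34, adjusted p = 8.44e-10 by limma). Plekhb1, a membrane protein of myelinating glia and photoreceptors, was lower by more, at 5.97 and 6.02 FPKM against 75.0 and 81.0 (log2 difference -3.50, adjusted p = 5.31e-11 by limma). Cers2, which makes very-long-chain ceramides, and Gal3st1, which makes sulfatide, had differences of -0.32 and 0.80, neither past the limit with FPKM as deposited. Gal3st1 was past it with a pseudocount of 0.1, at 1.54, and after quantile normalization, at 1.11.

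The relatives of Gpm6b and Pmp22 differed among themselves in direction and size. Gpm6a, the closest relative of Gpm6b, stood at 77.0 and 62.7 FPKM in the ferret pair and at 47.7 and 52.1 in the mouse pair, a log2 difference of 0.47 that was under the limit. The ratio of Gpm6b to Gpm6a was 0.847 and 1.08 in the ferret pair and 7.12 and 6.86 in the mouse pair. Emp1 had a difference of 0.11 and Emp3 of -0.62, both under the limit, and Emp1 was at 165 ± 7.86 FPKM in the ferret and 153 ± 1.74 in the mouse (SD, n = 2 each). Emp2 was lower in ferret astrocytes, at 0.533 and 0.563 FPKM against 31.8 and 33.6 (log2 difference -4.44, limma adjusted p = 3.10e-11). Pmp22 and Emp1 were thus the most abundant genes of their family in both species, and Emp2 was the one under 1 FPKM in the ferret but not in the mouse.

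**Figure D4:**
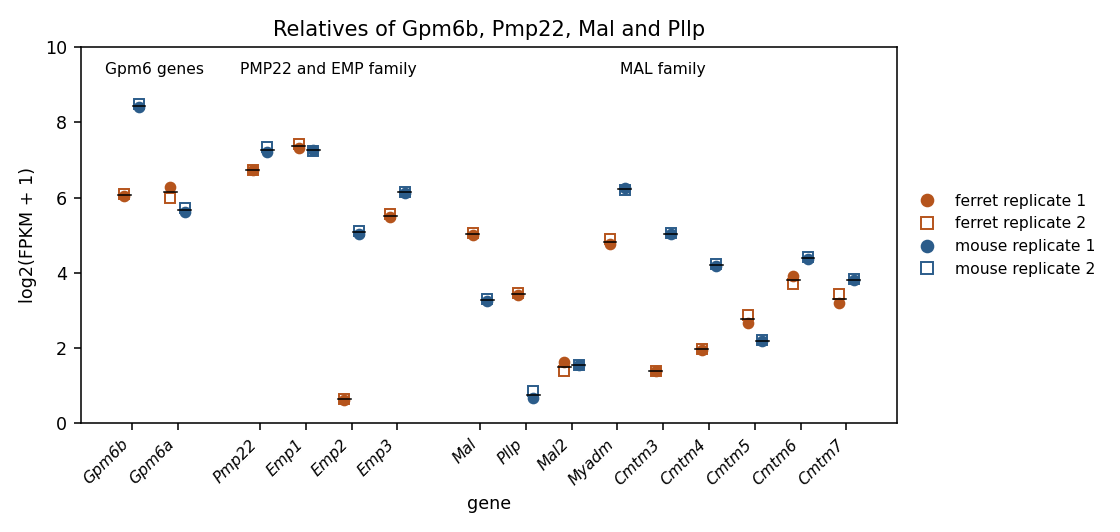
Level as log2(FPKM + 1) of the relatives of Gpm6b, of Pmp22 and of Mal and Pllp in the 2 ferret and 2 mouse libraries; points are libraries and short lines the species means. Gpm6b is far higher in the mouse while Gpm6a is not, and Emp2, at a mean of 0.548 FPKM in the ferret and 32.7 in the mouse, is the most separated relative of Pmp22.

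Each library holds the RNA of a whole culture, so fewer cells of a type and less RNA per cell cannot be told apart. Markers of other cells were therefore measured beside the myelin genes. The study itself stained cultures kept in serum for proteins of astrocytes, oligodendrocytes (MBP), microglia and neurons. It reported mostly astrocytes in both species, few microglia in both and few neurons in the ferret. The shares it stated for these cells made up the whole of each culture, which left none for oligodendrocytes in either species. Of 9 tested oligodendrocyte lineage markers 5 were higher and 0 lower by limma in ferret astrocytes, Bcas1 and Sox10 among them, and the list summed to 76.8 and 80.3 FPKM in the ferret pair and 23.1 and 22.7 in the mouse pair. Also higher were Nkx2-2, at 11.2 ± 0.551 FPKM in the ferret against 0.750 ± 0.082, and Gpr17, at 1.47 ± 0.086 against 0.095 ± 0.016 (SD, n = 2 each). Olig2 was at 5.05 ± 0.187 FPKM in the ferret and 9.71 ± 0.131 in the mouse (SD, n = 2 each). The lineage genes did not all go the way of Mbp. Bcas1, Sox10, Nkx2-2 and Gpr17 had mouse means under 1 FPKM, so they passed the filter through the ferret values only. Of all genes tested, 13.1% were called higher and 30.1% lower in the ferret, and the counts of each marker list stand beside these shares. Opalin was listed at 0 in both ferret libraries and at 0.017 and 0 FPKM in the mouse pair, which gives no direction.

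Of 7 tested Schwann cell and neural crest markers 5 were higher and 1 lower by limma, and the list summed to 148 and 160 FPKM in the ferret pair against 12.5 and 11.6 in the mouse pair. Besides Sox10, Erbb3, a neuregulin receptor, was at 18.4 and 21.1 FPKM in the ferret pair and at 0.319 and 0.325 in the mouse pair. Ngfr, the low-affinity neurotrophin receptor, was at 7.92 and 9.91 against 0.566 and 0.674, and Scn7a, a sodium channel, at 9.71 and 7.07 against 0.099 and 0.121. Cdh19, a cadherin of Schwann cell precursors, went the other way, at 1.23 and 1.20 against 9.61 and 8.69 FPKM. The part of such cells in the values of Mbp, Mal and Pllp was not tested.

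Several lists were higher in the mouse, as Gpm6b was. Pmp22 was higher there by less, at a log2 difference of -0.53, or -0.19 relative to the median of all tested genes. Of 9 fibroblast markers 8 were lower and 1 higher in ferret astrocytes by limma, with sums of 242 and 218 FPKM in the ferret and 1344 and 1266 in the mouse pair. Col3a1 and Fn1 were the most abundant in the mouse, at 388 ± 18.6 and 364 ± 21.1 FPKM against 1.52 ± 0.119 and 54.3 ± 4.96 in the ferret (SD, n = 2 each). Col1a2 and Prrx1 were the most abundant in the ferret, at 79.6 ± 7.08 and 56.4 ± 1.71 FPKM against 209.7 ± 6.77 and 19.1 ± 0.727 in the mouse (SD, n = 2 each). Prrx1 was the marker that was higher in the ferret. All 9 tested microglial markers were lower in ferret astrocytes, with sums of 6.88 and 5.54 against 400 and 383 FPKM, and Cx3cr1 was listed at 0 in both ferret libraries. Tyrobp and C1qb led in the mouse, at 146 and 119 FPKM in the mean, and Tmem119 and Trem2 in the ferret, at 3.84 and 0.773. Of 2 tested endothelial markers both were lower, and Cdh5, Tek and Pecam1 were listed at 0 in both ferret libraries, where Kdr led at a mean of 0.220 FPKM. In the mouse Cdh5 led at a mean of 22.2 FPKM and made up most of the list, which summed to 24.3 and 24.9. Mouse Pecam1 was only at 0.041 and 0.031 FPKM, and Cldn5 was listed at 0. Of 4 tested neuron markers 3 were higher and none lower in ferret astrocytes, with sums of 30.8 and 31.6 against 32.0 and 33.3 FPKM. Map2 led in both species, at 18.9 and 30.8 FPKM in the mean, followed in the ferret by Nefl at 5.05 and Syt1 at 5.02, whose ranges overlapped, and in the mouse by Syt1 at 1.19. The part of any of these cells in the values of Pmp22 and Gpm6b was not tested.

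**Figure D5:**
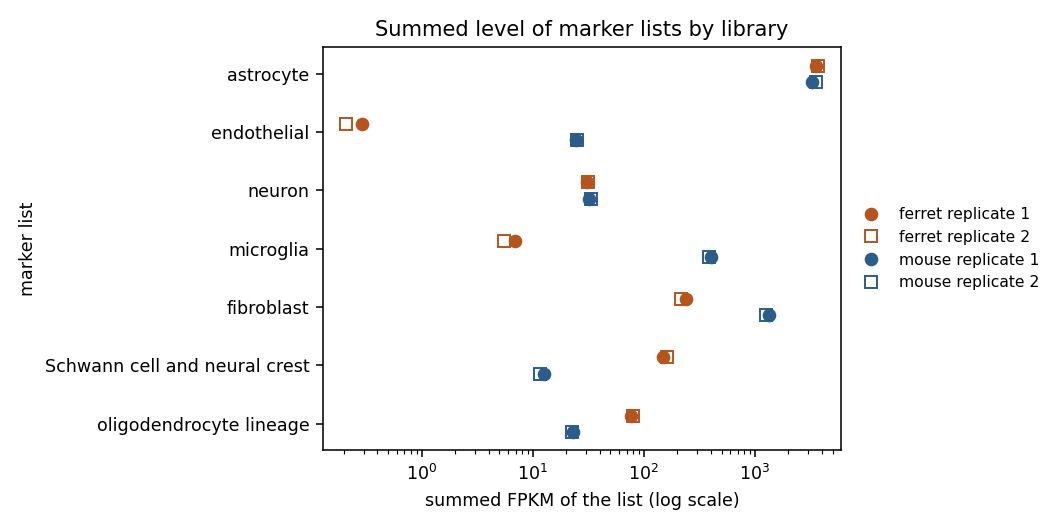
Summed FPKM of 7 marker lists (log axis) in the 2 ferret and 2 mouse libraries. The oligodendrocyte lineage and Schwann cell lists are higher in both ferret libraries, and the fibroblast, microglial and endothelial lists are higher in both mouse libraries. The astrocyte and neuron sums are close, but single genes differ. Of 10 tested astrocyte markers 6 were called lower and 1 higher in the ferret, and of 4 tested neuron markers 3 were called higher and none lower.

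Genes of similar level were sought by the Euclidean distance of log2(FPKM + 1) over the 4 libraries among all tested genes. Nearest to Mbp was Plekha4 (distance 0.24). Nearest to Cnp were Marcksl1 (0.13) and Prdx4 (0.14), and nearest to Pmp22 were Psmb6 (0.13) and Taldo1 (0.14). Nearest to Gpm6b were Rtn4 (0.15), at 65.4 and 63.8 FPKM in the ferret pair against 364 and 377, and Cyb5r3 (0.33). None of these 7 genes was on the myelin lists used here, which were not exhaustive and held few of the genes tested. With 4 libraries in 2 pairs, such likeness describes a level in each species and no more.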

How the data were processed

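RNA of cultured ferret and mouse astrocytes was sequenced from stranded, polyA-selected libraries, 2 for each species. The authors aligned the reads with STAR (version 2.7.0f) to the Ensembl genome of each species (GRCm38 for mouse) and deposited FPKM per gene from Cufflinks (version 2.2.1). Depth is unknown from the deposited FPKM alone, and read counts that the study lists outside these files were not used here. From the lowest values only a ratio could be read, 1 fragment being worth 0.853 times as much FPKM in ferret replicate 1 as in replicate 2, and 1.20 times for mouse.

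Symbols were matched without regard to case. log2(FPKM + 1) was compared with limma (version 3.58.1, R 4.3.3, empirical Bayes with trend) for 10204 genes with a mean of at least 1 FPKM in a species, with Benjamini-Hochberg adjustment over all of them. Calls required an adjusted p below 0.05 and a log2 difference beyond 1 in either direction. The fit was tested on simulated data. The 8 genes, the lists and the settings were chosen with earlier results of these data known. Named were the 8 genes, every called gene of the other myelin lists, relatives of at least 1 FPKM in a species, the 2 most abundant markers of each list and species, defining markers at 0, and the nearest genes of Mbp, Cnp, Pmp22 and Gpm6b. Prx, Egr2, Gal3st1, Cers2, Myrf, Mobp, Erbb3, Ngfr, Scn7a, Nkx2-2, Gpr17, Slc1a2, Slc1a3 and Gja1 were named after their values were seen. Gene models, coding sequences and shared 50-base words came from GENCODE M21 on GRCm38, a release other than the authors'. Other settings were a pseudocount of 0.1, no filter, rescaled or quantile-normalized libraries, the replicate number as a block, summed values of a symbol and each library left out. A ferret genome and protein sequences were not used here. Of the genes these rules name, 3 are not reported here, although those on a list remain in its counts and sums.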

Additional observations from a re-analysis of the deposited data

How the results depend on the processing

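None of the 70 differences of the 7 tested myelin protein genes recomputed under 10 other settings changed direction, and 18 moved by more than the spread between duplicates. Cnp passed the limit of 1 after rescaling and quantile normalization, and Mag with a pseudocount of 0.1. Without each library in turn, Mbp ranged from 3.01 to 3.51, Pllp from 2.60 to 2.78, Mal from 1.73 to 1.79, Cnp from 0.77 to 0.97, Mag from 0.59 to 0.79, Pmp22 from -0.60 to -0.47 and Gpm6b from -2.41 to -2.34. Mog could be fitted without the filter only, at a difference of 0.35. Genes called higher in ferret numbered 2080 after quantile normalization in place of 1336. The other counts stayed within 1.5 times. Other myelin genes called higher ranged from 7 to 11 and those called lower from 3 to 4. With the replicate number as a block, 1342 genes were higher and 3072 lower, and no call on the myelin genes changed. Deviations of same-numbered libraries were uncorrelated across genes (r = 0.00995), so the numbers do not pair the libraries. Since read counts were not used here, the counting error of genes under 1 FPKM, Mog among them, was not estimated.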

Other observations

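The wider MAL family, multi-pass proteins of membrane traffic, held genes on either side. Of the 9 tested genes, Mal and Pllp were the 2 on the higher side in ferret astrocytes, and Myadm, Cmtm3 and Cmtm4 were lower by limma with Benjamini-Hochberg adjustment. Of all genes tested, 13.1% were called higher and 30.1% lower. Mal and Pllp were chosen on this same contrast, so nothing is read from the count. Cmtm3 was at 1.59 and 1.60 FPKM in the ferret pair and at 31.6 and 32.0 in the mouse pair (log2 difference -3.66, limma adjusted p = 5.47e-11). Cmtm4 was at 2.88 and 2.91 against 17.1 and 17.9 FPKM, and Myadm at 26.0 and 28.7 against 74.8 and 73.3. Mal2, Cmtm5, Cmtm6 and Cmtm7 had differences between -0.58 and 0.57, all under the limit. Whether the family as a whole differs from other genes was not tested.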
